A study of Mus musculus with 42 samples.

Results

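The livers of mice fed docosahexaenoic acid (DHA) were compared with the livers of mice kept on an omega-3-deficient (OD) diet, across every gene with enough counts in these libraries. There were 5 DHA livers and 4 OD livers among the 42 libraries of the study, and 4600 of the 48709 genes in the count table could be tested. All mice, the OD controls included, belonged to the K14-Rac1V12 strain, in which the keratin 14 promoter drives an active form of the GTPase Rac1 in the basal cells of the epidermis, giving a skin disease like psoriasis. The transgene is therefore a keratinocyte one, and the liver was examined as a distant organ. The labels state that the mice ate the OD diet for 2 weeks and were allotted, at an age of 14 weeks, to the DHA diet, an eicosapentaenoic acid (EPA) diet or continued OD diet, with 5 mice per diet, for a further 12 weeks. Both fatty acids were given at 3 g per kg of diet, meant to match 4 g per day in a human of 70 kg. The label text writes EPA beside the DHA dose as well, and it was read here as a dose of DHA. Livers were flushed with cold buffer, and 10 ng of RNA from each entered a 3′ end library with unique molecular identifiers. The labels give no sex, and each liver library was taken as a separate mouse. The spread between libraries is thus what the p-values measure.

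DHA and EPA are long-chain omega-3 fatty acids, of which DHA has the longer and more unsaturated chain. In hepatocytes such fatty acids are ligands of PPAR alpha, a nuclear receptor that switches on genes for uptake, activation and oxidation of fatty acids in mitochondria, peroxisomes and microsomes. Polyunsaturated fatty acids are also known to hold down SREBP1, the transcription factor behind fatty acid synthesis, while its relative SREBP2 drives the making and uptake of cholesterol. The comparison asks which of these programmes differ in the liver when DHA replaces a diet deficient in omega-3 fatty acids.

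The libraries differed in ways that bear on all results. Total counts were 343824 to 492254 in DHA livers and 549635 to 768532 in OD livers, with means of 444004 ± 59017 in DHA livers (SD, n = 5) and 671271 ± 96218 in OD livers (SD, n = 4), and the groups did not overlap (exact two-sided permutation test, p = 0.00794, the smallest that 126 splits allow, and 0.0198 after adjustment over 5 library values). The tested genes held 94.3% of counts in DHA livers and 95.2% in OD livers (exact permutation p = 0.00794, adjusted 0.0198), and the mitochondrially encoded share averaged 9.05% ± 1.25 in DHA livers and 9.55% ± 1.05 in OD livers (exact permutation p = 0.548). Alb, the albumin gene, reached 55007 ± 6616 CPM (counts scaled to 1e6 per library) in DHA livers and 42974 ± 3986 CPM in OD livers (exact permutation p = 0.0238, adjusted 0.0397). With the TMM scaling used for the genes below, Alb differed by 0.22 ± 0.17 on the log2 scale (SE, DHA minus OD), not under an unadjusted p of 0.05 (edgeR). DHA liver 1 had 251 counts of Xist, the RNA made by the inactive X chromosome of females, and 0 counts over 4 Y-linked genes, while the other DHA livers and the OD livers had 0 to 2 Xist counts. DHA liver 3 had 22 Y-linked counts and 2 Xist counts, with 36 to 62 Y-linked counts in DHA livers 2, 4 and 5 and 38 to 104 in OD livers. Scaled by total counts, Y-linked genes were at 49.9 CPM in DHA liver 3. They were at 105 to 126 CPM in DHA livers 2, 4 and 5 and at 69.1 to 144 CPM in OD livers. Their means were 80.6 ± 54.4 CPM in DHA livers and 113 ± 33.4 CPM in OD livers (exact permutation p = 0.341, adjusted 0.427). EPA livers 1 and 5 also carried Xist, at 394 and 219 counts. Signs of sex were thus not balanced between the diets, and the lists and genes that moved most with them are also given without DHA livers 1 and 3. All 14 genes of hepatocyte identity, Alb among them, had enough counts to be tested, with summed levels of 167167 to 201414 CPM in DHA livers and 140348 to 179929 CPM in OD livers.

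No gene passed an adjusted p of 0.05 between DHA and OD livers (0 of 4600 genes, a background of 0%, quasi-likelihood test of edgeR, p adjusted by Benjamini-Hochberg). The smallest adjusted p was 0.0657, for Mup2. At an unadjusted p under 0.05 there were 270 genes, of which 131 were higher (2.85% of genes tested) and 139 lower (3.02%) in DHA livers. DESeq2 called 2 genes, Mup2 and Fmo2, and limma voom with quality weights called 0, with 390 genes under an unadjusted p of 0.05. Over all genes the log2 difference, DHA minus OD, had a median of 0.0016, with quartiles of -0.18 and 0.18. For 61 genes (1.33%) every DHA liver was above every OD liver, and for 55 genes (1.2%) every DHA liver was below. The genes below are therefore described by their values, and none is claimed as changed unless a test is named. Fold differences for low genes rest on few counts, since 3 counts correspond to 6.09 to 8.73 CPM in DHA livers and 3.90 to 5.46 CPM in OD livers.

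Mup2 stood first among the genes with higher values. It encodes a major urinary protein, one of a family of secreted pheromone carriers that is more abundant in male liver, and it lies at chr4:60135932-60154289 (GRCm38, minus strand). Its levels were 363, 236, 3005, 118 and 394 CPM in the DHA livers, against 13.02, 5.47, 19.3 and 11.6 CPM in the OD livers. No liver of one diet reached the range of the other, and DHA liver 3 stood far above the rest. The log2 difference was 6.05 ± 1.01 (SE), with an adjusted p of 0.0657 by edgeR and 4.26e-08 by DESeq2. Without DHA liver 3 the difference was 4.49 and its adjusted p by edgeR 0.0056, and Mup2 also passed without DHA liver 2 (0.0478) or DHA liver 4 (0.0175). Mup2 did not pass in the other fits that left out 1 liver. The smallest adjusted p of any gene was 0.472 without OD liver 1, 0.343 without OD liver 3 and 0.231 without OD liver 4 (edgeR). That smallest p was 0.155 with robust estimation and 0.223 with the DHA and OD livers alone (edgeR). The 21 Mup genes of the table include near-identical copies, and the split of reads between such copies is uncertain. The summed counts of all 21 ran the other way, at 2.25% to 8.81% of all counts in DHA livers and 5.51% to 17.0% in OD livers. Mup3, another member, named after its values were seen, had 7888, 12886, 6493, 23429 and 10574 CPM in the DHA livers, against 21829.5, 19877, 21466 and 19229 CPM in the OD livers.

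Fmo2, which encodes a flavin-containing monooxygenase that oxidises sulphur and nitrogen in drugs and is on the list of female-biased genes used here, had 34.9, 42.8, 94.1, 62.4 and 53.7 CPM in the DHA livers, against 11.6, 30.98, 17.1 and 10.1 CPM in the OD livers. All 5 DHA livers were above all 4 OD livers, by a log2 difference of 1.75 ± 0.35 (SE) with an adjusted p of 0.239 by edgeR and 0.00735 by DESeq2. Timp3, an inhibitor of matrix metalloproteinases that is anchored in the extracellular matrix, was also apart, with 51.3, 52.01, 79.96, 55.7 and 53.7 CPM in the DHA livers, against 30.4, 30.98, 17.1 and 23.2 CPM in the OD livers and a log2 difference of 1.18 ± 0.25 (adjusted p 0.317, edgeR). Golt1a, named for a role in vesicle transport at the Golgi, had 26.7, 39.8, 25.9, 31.2 and 30.95 CPM in the DHA livers, against 11.6, 20.04, 0 and 0 CPM in the OD livers. OD livers 3 and 4 had 0 counts of it, and OD livers 1 and 2 stayed below every DHA liver (log2 difference 1.91 ± 0.54). Fra10ac1 was likewise apart, at 16.4 to 33.7 CPM in DHA livers against 8.57 to 14.5 CPM in OD livers and a log2 difference of 1.11 ± 0.28. Abhd2, a serine hydrolase that acts on lipids, and the kinase gene Stk16 had log2 differences of 1.42 ± 0.36 and 0.79 ± 0.21, and for each 1 liver of either diet lay within the other's range. Ighg2c, an immunoglobulin heavy chain constant gene, had 96.5, 12.2, 68.2, 163 and 128 CPM in the DHA livers, against 4.34, 18.2, 2.14 and 42.001 CPM in the OD livers, and the ranges overlapped (log2 difference 2.43 ± 0.58, adjusted p 0.696, edgeR).

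Among the lower genes, the leading pair were chaperones of the endoplasmic reticulum. Pdia4, a protein disulphide isomerase, had 172, 159, 139, 152 and 122 CPM in the DHA livers, against 199.6, 217, 306 and 226 CPM in the OD livers, a log2 difference of -0.67 ± 0.18 (adjusted p 0.745, edgeR). Hsp90b1, the chaperone known as GRP94, had 686, 642, 658, 611 and 650.0 CPM in the DHA livers, against 855, 937, 1133 and 946 CPM in the OD livers, a log2 difference of -0.57 ± 0.16. Every DHA liver lay below every OD liver for both genes, and the 5 DHA values of Hsp90b1 lay close together. Vcp, an ATPase that pulls misfolded proteins out of the endoplasmic reticulum, was also apart, at 185 to 223 CPM in DHA livers against 227 to 314 CPM in OD livers (-0.42 ± 0.13). Apoa1, the main protein of high-density lipoprotein, had 5498, 5644, 7450.0, 5569.6 and 8486 CPM in the DHA livers, against 8879, 9947, 10227 and 9398 CPM in the OD livers. All 5 DHA livers were below the OD livers, by a log2 difference of -0.56 ± 0.17. Baat, which joins bile acids to glycine or taurine, had 85.7 to 116 CPM in DHA livers against 131 to 169 CPM in OD livers (-0.48 ± 0.14), and Ugt2b35, a glucuronosyltransferase, had 16.5 to 42.8 CPM in DHA livers against 49.2 to 72.3 CPM in OD livers (-0.83 ± 0.25), both without overlap. Aspdh and Dusp1 overlapped, at log2 differences of -0.57 ± 0.17 and -0.91 ± 0.27. Each of these genes had the same adjusted p by edgeR, 0.745.

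**Figure D1:**
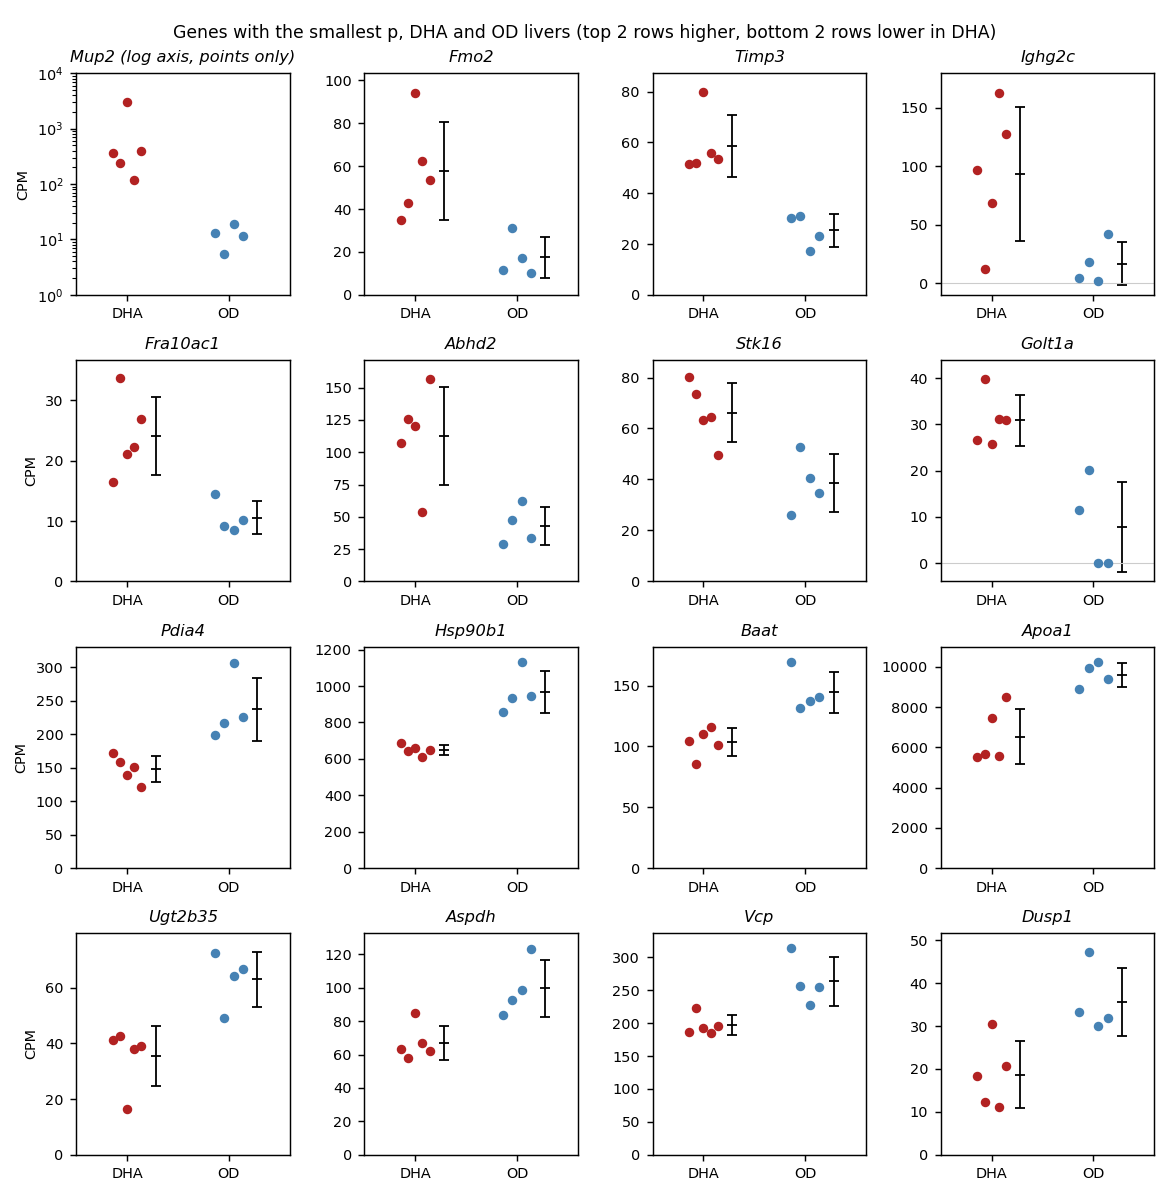
Normalised counts (CPM, vertical axes, from 0 except for Mup2, which has a log axis) of the 8 higher and the 8 lower genes with the smallest p, 1 point per liver, DHA livers left and OD livers right, with mean and SD in black except for Mup2. Pdia4, Hsp90b1, Baat, Apoa1, Ugt2b35 and Vcp show DHA livers entirely below OD livers, and Mup2, Fmo2, Timp3, Fra10ac1 and Golt1a entirely above.

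Genes of fatty acid oxidation and other PPAR alpha targets had mostly higher values in DHA livers. Of 60 genes on the list, 49 had enough counts, 0 passed the adjusted threshold, and 14 were higher and 0 lower at an unadjusted p under 0.05, where 2.85% and 3.02% of all genes were. A total of 43 members lay above 0 and 6 below, with a median log2 difference of 0.35 against 0.0016 over all genes. In 5 members every DHA liver was above every OD liver, where 1.33% of all genes were. Members named below beyond the 3 with the smallest p and a panel of lipid genes were named after their values were seen, here and for the chaperones.

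The receptor gene itself, Ppara, differed by 0.10 ± 0.20 (log2, SE). The steps of entry and activation came first in order of p. Crat, the carnitine acetyltransferase that carries acyl groups in mitochondria and peroxisomes, had 34.9, 33.7, 30.6, 24.5 and 12.4 CPM in the DHA livers, against 17.4, 9.11, 10.7 and 10.1 CPM in the OD livers, with DHA liver 5 inside the OD range (1.14 ± 0.33). Acsl1, which turns long-chain fatty acids into acyl-CoA, had 454, 343, 470.3, 548 and 332 CPM in the DHA livers, against 244, 359, 266 and 297 CPM in the OD livers (0.56 ± 0.19). Cpt2, on the inner mitochondrial membrane, had 65.7, 67.3, 79.96, 91.4 and 53.7 CPM in the DHA livers, against 39.1, 43.7, 47.1 and 40.6 CPM in the OD livers, without overlap (0.75 ± 0.26). Slc25a20, the acylcarnitine carrier between those steps, had 53.7 to 103 CPM in DHA livers against 44.97 to 56.5 CPM in OD livers (0.61 ± 0.22), while Cpt1a, the gated first step, had 259 to 401 CPM in DHA livers against 211 to 288 CPM in OD livers (0.27 ± 0.15, not under an unadjusted p of 0.05). Cd36, a fatty acid uptake receptor, differed by 0.79 ± 0.37. Without DHA livers 1 and 3, Cd36 differed by 0.40 and Slc25a20 by 0.31, and Crat had too few counts for the test.

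Within the oxidation spiral, Hadh, the short-chain hydroxyacyl-CoA dehydrogenase, was at 184 to 256 CPM in DHA livers against 159 to 182 CPM in OD livers, without overlap (0.35 ± 0.13). Eci1, an enoyl-CoA isomerase needed for unsaturated chains, differed by 0.46 ± 0.21. Microsomal omega-hydroxylases that are classic PPAR alpha targets in mouse had larger differences. Cyp4a14 had 271, 79.5, 176, 263 and 70.2 CPM in the DHA livers, against 4.34, 25.5, 66.4 and 60.8 CPM in the OD livers, without overlap (2.17 ± 0.75), and Cyp4a10 had 127, 39.8, 282, 243 and 55.7 CPM in the DHA livers, against 21.7, 43.7, 70.7 and 65.2 CPM in the OD livers, with DHA livers 2 and 5 inside the OD range (1.60 ± 0.62). Without DHA livers 1 and 3, Cyp4a14 differed by 1.85 and Cyp4a10 by 1.21 (unadjusted p 0.0485 and 0.102, edgeR). The acyl-CoA thioesterase gene Acot4 was apart, at 20.6 to 39.01 CPM in DHA livers against 4.34 to 11.6 CPM in OD livers (1.65 ± 0.58), and Acot12 differed by 0.45 ± 0.19.

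Genes for lipid droplets were mixed. G0s2, an inhibitor of the triglyceride lipase, had 36.96, 48.9, 96.4, 147 and 10.3 CPM in the DHA livers, against 28.9, 25.5, 8.57 and 44.9 CPM in the OD livers, a wide spread in both diets (1.26 ± 0.55). Mgll, which splits monoglycerides, and Creb3l3, a liver transcription factor induced by fasting, differed by 0.42 ± 0.20 and 0.41 ± 0.18. Plin2, which coats lipid droplets, was at 116 to 229.9 CPM in DHA livers against 96.4 to 297 CPM in OD livers (-0.12 ± 0.30), and Angptl4, an inhibitor of lipoprotein lipase, at 48.9 to 111 CPM in DHA livers against 43.4 to 83.8 CPM in OD livers (0.25 ± 0.26). Pdk4 and Fgf21, further PPAR alpha targets, had too few counts, with 0 to 3 and 0 to 1 counts per DHA liver and 0 to 7 and 0 to 5 counts per OD liver.

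The oxidation list rested on part of the DHA livers. Its median, as log2 of CPM plus 1 relative to the mean of the 9 livers, was 0.14, -0.18, 0.55, 0.33 and -0.19 in DHA livers 1 to 5 and -0.17, -0.059, -0.24 and -0.18 in OD livers 1 to 4. DHA livers 1, 3 and 4 were above all OD livers, and DHA livers 2 and 5 lay among them. Without DHA liver 3 the members higher at an unadjusted p under 0.05 numbered 6, without DHA liver 4 also 6, while leaving out both DHA livers 1 and 3 left 5 of 49, with a median of 0.16. Without OD liver 1 they numbered 9, and leaving out DHA liver 5 gave 22. None was lower in any of these fits.

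Chaperones and the unfolded protein response showed the opposite sign. This response restores folding capacity in the endoplasmic reticulum, and its sensors act through the factors XBP1, ATF6 and ATF4. Of 34 genes on the list, 24 had enough counts, 0 passed the adjusted threshold, and 9 were lower and 0 higher at an unadjusted p under 0.05, where 3.02% and 2.85% of all genes were. The median log2 difference was -0.29, with 20 members below 0 and 4 above. In 3 members, Pdia4, Hsp90b1 and Dnajc3, every DHA liver was below every OD liver, where 1.2% of all genes were.

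Hspa5, the chaperone BiP that keeps the sensors silent, had 398, 447, 562, 562 and 421 CPM in the DHA livers, against 859, 1033, 685 and 533 CPM in the OD livers (-0.70 ± 0.28). Only OD liver 4 lay within the DHA range. Dnajc3, a co-chaperone of BiP that also restrains the kinase PERK, had 238, 245, 214, 303 and 274 CPM in the DHA livers, against 343, 324, 495 and 322 CPM in the OD livers (-0.54 ± 0.18). Sdf2l1, another partner of BiP, had 32.8, 21.4, 18.8, 17.8 and 14.4 CPM in the DHA livers, against 44.8, 23.7, 74.9 and 52.1 CPM in the OD livers (-1.19 ± 0.40). Calr, the lectin chaperone calreticulin, differed by -0.49 ± 0.20, its partner Pdia3 by -0.64 ± 0.20, and Manf, a secreted protein of the stress response, by -0.90 ± 0.39. Xbp1, which encodes the response's own transcription factor, had 139.6, 141, 91.7, 132 and 140.3 CPM in the DHA livers, against 209.7, 153, 137 and 298 CPM in the OD livers (-0.64 ± 0.20). The 9 genes were thus mostly folding machinery of the endoplasmic reticulum. Atf4, the factor of the PERK branch, differed by -0.24 ± 0.26, and the cytosolic chaperone gene Hsp90ab1 by -0.24 ± 0.18, neither under an unadjusted p of 0.05. Leaving out any 1 of the 9 livers left 6 to 9 members lower at that level, and leaving out DHA livers 1 and 3 left 6 of 26.

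Promoter sequence of these genes was read from RefSeq windows of 300 bases around each annotated start (GRCm38.p6), of which 29 of the 34 list members had at least 1. The motif searched was CCAAT, then 9 bases of any kind, then CCACG, on both strands, which is the classical endoplasmic reticulum stress element. It was found in 8 of the 29 members, tested or not, against 0.137% of all 27025 genes with a window. It was in 0.279% of the 3580 tested genes with a window and in 0.119% of all 32851 windows. The element is named for the response that the list covers, so its share in the list is not a test. Among the 9 members that were lower at an unadjusted p under 0.05, 8 had a window and 4 of these held the motif. The sites of those 4 genes are shown because they are the members that share both features, with 20 bases on each side, 5′ to 3′ on the gene's strand, and the 5 bases at each end of the motif in capitals.
Calr (chr8:84847055-84847113, minus strand, motif reversed): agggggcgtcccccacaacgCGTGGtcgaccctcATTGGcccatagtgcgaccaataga
Dnajc3 (chr14:118937807-118937865, plus strand, motif as spelled): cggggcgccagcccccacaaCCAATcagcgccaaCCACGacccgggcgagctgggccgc
Hsp90b1 (chr10:86705618-86705676, minus strand, motif as spelled): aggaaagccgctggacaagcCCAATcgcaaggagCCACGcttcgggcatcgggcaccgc
Hsp90b1 (chr10:86705513-86705571, minus strand, motif reversed): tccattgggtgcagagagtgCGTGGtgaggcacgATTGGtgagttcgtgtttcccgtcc
Hspa5 (chr2:34772005-34772063, plus strand, motif as spelled): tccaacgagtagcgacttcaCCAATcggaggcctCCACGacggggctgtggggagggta
Hsp90b1 held the motif in both orientations, and in Calr it was reversed. Syvn1 held it but had too few counts. The windows of Canx, Creld2 and Pdia6 also held it, and those genes differed by -0.034 ± 0.14, -0.51 ± 0.57 and -0.32 ± 0.21, not under an unadjusted p of 0.05. The Pdia4, Pdia3, Xbp1 and Sdf2l1 windows did not hold these letters. A match is a description of the sequence only.

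**Figure D2:**
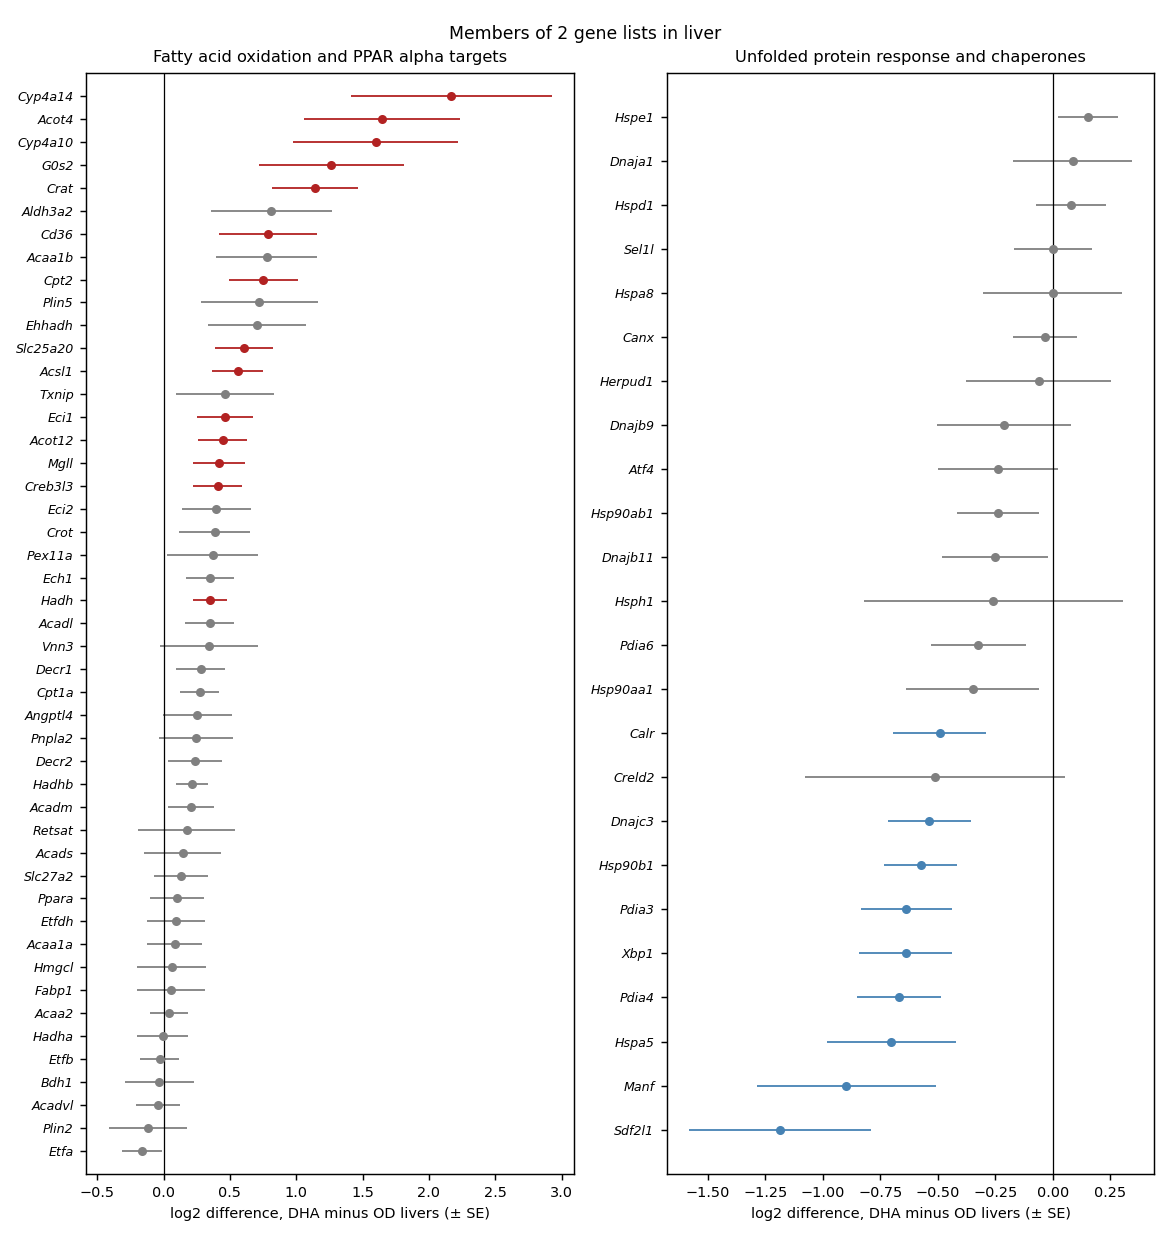
Log2 difference, DHA minus OD livers, with its standard error (horizontal axes) for 47 tested members of the fatty acid oxidation list (left) and 24 of the chaperone list (right), coloured where the unadjusted p was under 0.05 and grey otherwise. Oxidation genes lie mostly right of 0, with Cyp4a14 at 2.17, and chaperone genes mostly left, with Sdf2l1 at -1.19.

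Genes of fatty acid synthesis had lower medians but none under an unadjusted p of 0.05. Of 26 genes, 19 had enough counts, 14 lay below 0 and 5 above, and the median log2 difference was -0.43. Srebf1, which encodes SREBP1, had 71.9, 45.9, 44.7, 80.3 and 82.5 CPM in the DHA livers, against 56.4, 71.1, 55.7 and 66.6 CPM in the OD livers (0.075 ± 0.43). Acly, which supplies cytosolic acetyl-CoA, had 156, 104, 70.5, 55.7 and 169 CPM in the DHA livers, against 161, 106, 59.96 and 533 CPM in the OD livers (-0.96 ± 0.55). Fasn, the fatty acid synthase, had 101, 27.5, 58.8, 49.1 and 107 CPM in the DHA livers, against 120.1, 60.1, 25.7 and 289.7 CPM in the OD livers (-0.85 ± 0.56). Elovl6, which lengthens palmitate, had 28.2 to 90.3 CPM in DHA livers against 17.1 to 201 CPM in OD livers (-1.002 ± 0.63), and Thrsp, a regulator of lipogenesis, had 214 to 673 CPM in DHA livers against 146 to 814 CPM in OD livers (-0.73 ± 0.42). Scd1, the main stearoyl-CoA desaturase of liver, had 4704, 906, 3457, 6103 and 2057 CPM in the DHA livers, against 7247, 3041, 473 and 7529.7 CPM in the OD livers (-0.41 ± 0.60). Me1, which makes NADPH for synthesis, differed by -0.47 ± 0.49, and Taldo1, of the pentose phosphate pathway, by -0.39 ± 0.20. OD liver 4 had the highest value of Acly, Fasn, Elovl6, Scd1 and Me1, and OD liver 3 the lowest of Fasn, Elovl6, Scd1 and Me1. Without OD liver 4 the list median was -0.047 and without OD liver 3 it was -0.73, with 6 members then lower at an unadjusted p under 0.05.

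Cholesterol synthesis and SREBP2 targets followed the same livers. Of 26 genes, 22 were tested, 20 lay below 0, 0 were under an unadjusted p of 0.05, and the median was -0.41. Sqle, the first oxygen-dependent enzyme of the pathway, had 22.6, 24.5, 2.35, 0 and 37.1 CPM in the DHA livers, against 34.7, 32.8, 10.7 and 69.5 CPM in the OD livers (-1.13 ± 0.62), and Lss, which closes the sterol rings, had 20.5, 18.4, 2.35, 6.69 and 26.8 CPM in the DHA livers, against 24.6, 16.4, 10.7 and 73.9 CPM in the OD livers (-1.11 ± 0.57). Insig1, which retains the SREBPs in the endoplasmic reticulum, had 71.3 to 184 CPM in DHA livers against 92.1 to 264 CPM in OD livers (-0.52 ± 0.29). DHA livers 3 and 4 were low and OD liver 4 high for most members, and without OD liver 4 the median was -0.12.

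**Figure D3:**
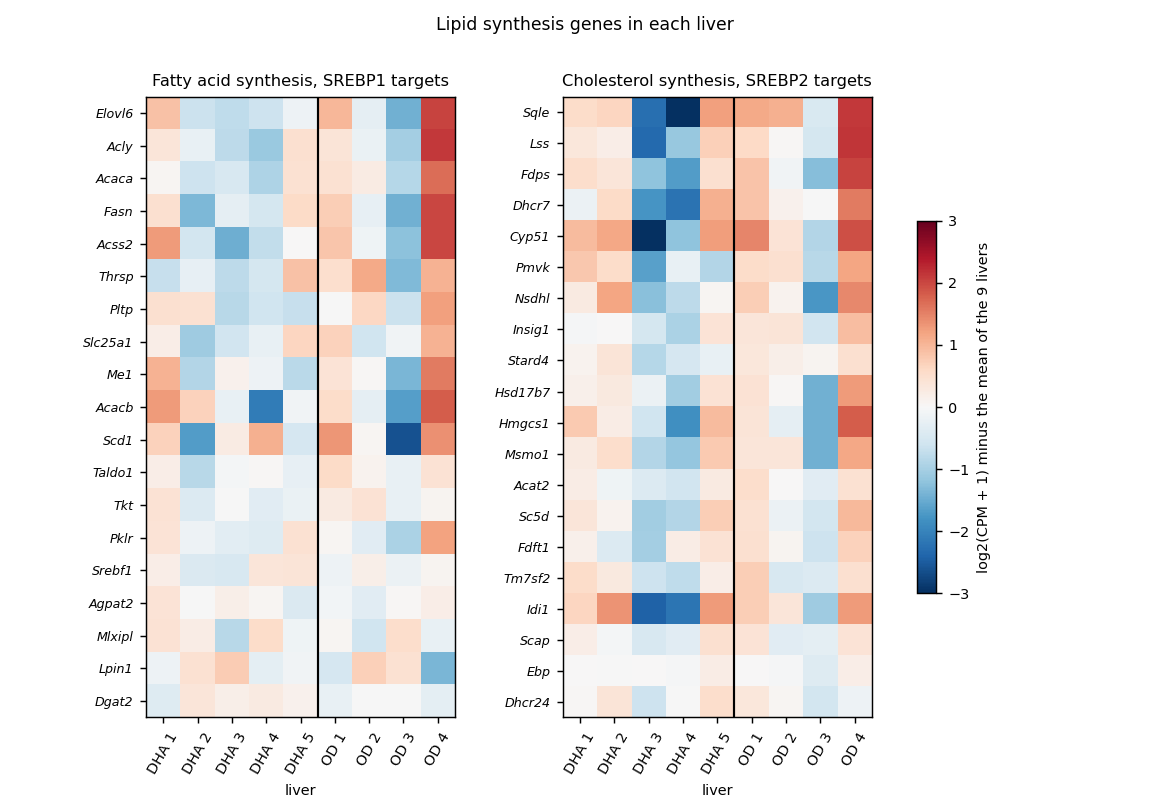
Log2 of CPM plus 1, minus its mean over the 9 livers (colour, clipped at 3), for 19 tested genes of fatty acid synthesis (left) and 20 of cholesterol synthesis (right), 1 column per liver, DHA livers left of the black line and OD livers right of it. OD liver 4 is red for most genes, OD liver 3 is blue for many, and DHA livers 3 and 4 are blue in the cholesterol panel.

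The desaturases and elongases that make long polyunsaturated fatty acids from shorter ones overlapped between diets. Of 28 genes in that list 20 were tested, and the median was -0.036. At an unadjusted p under 0.05, 1 was higher (Acsl1) and 0 lower, where 2.85% and 3.02% of all genes were. Fads1, the delta-5 desaturase, had 318, 291, 226, 194 and 417 CPM in the DHA livers, against 382, 321, 281 and 414 CPM in the OD livers (-0.27 ± 0.20), and Fads2, the delta-6 desaturase, had 41.1, 33.7, 21.2, 13.4 and 30.95 CPM in the DHA livers, against 30.4, 41.9, 32.1 and 43.4 CPM in the OD livers (-0.40 ± 0.31). The elongases Elovl2 and Elovl5 differed by -0.25 ± 0.27 and -0.11 ± 0.36. Of the 30 tested genes for lipoproteins and LXR targets (32 listed), 2 were lower at that level, Apoa1 and Scarb1, the receptor for high-density lipoprotein, at 55.4 to 71.3 CPM in DHA livers against 70.97 to 118 CPM in OD livers (-0.43 ± 0.19). Apob, the scaffold of very-low-density lipoprotein, differed by -0.33 ± 0.18, Apoa4 by -0.66 ± 0.46, and the cholesterol exporters Abca1 and Abcg8 by -0.12 ± 0.20 and 0.19 ± 0.36.

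In bile acid synthesis and transport, 21 of 24 genes were tested, with 1 higher and 2 lower at an unadjusted p under 0.05. Over all genes 2.85% were higher and 3.02% lower. Abcc3, which exports conjugates from hepatocytes to blood, had 53.4, 39.8, 77.6, 66.9 and 57.8 CPM in the DHA livers, against 28.9, 23.7, 23.6 and 30.4 CPM in the OD livers, without overlap (1.14 ± 0.35). Nr0b2, a repressor induced by bile acids, was at 10.3 to 35.3 CPM in DHA livers against 24.6 to 53.5 CPM in OD livers (-0.72 ± 0.33), and Baat is given above. Cyp7a1, the rate-limiting enzyme, had 73.9, 156, 63.5, 82.5 and 319.9 CPM in the DHA livers, against 18.8, 78.4, 188 and 129 CPM in the OD livers (0.45 ± 0.56), and Cyp8b1, which sets the share of cholic acid, differed by 0.034 ± 0.33. For glucose metabolism 0 of 28 tested genes (30 listed) were under that level. G6pc, the last step of glucose output, had 326, 162, 212, 165 and 109 CPM in the DHA livers, against 230.0, 195, 289 and 679 CPM in the OD livers (-0.84 ± 0.40, and -0.28 without OD liver 4). Pck1 differed by -0.067 ± 0.21, Pcx by 0.29 ± 0.15 and Irs2 by -0.70 ± 0.38.

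Among 36 tested cytochrome P450 and flavin monooxygenase genes (57 listed), 4 were higher and 3 lower at an unadjusted p under 0.05, where 2.85% and 3.02% of all genes were. Besides Fmo2, Cyp4f15 was at 49.5 to 67.3 CPM in DHA livers against 31.8 to 56.5 CPM in OD livers (0.56 ± 0.22), and Cyp2c67 at 87.01 to 288 CPM in DHA livers against 188 to 392 CPM in OD livers (-0.86 ± 0.31, and -0.48 without DHA livers 1 and 3). Cyp3a11, the main drug-oxidising P450 of mouse liver, had 1302, 156, 1148, 1059 and 832 CPM in the DHA livers, against 788, 415, 225 and 495 CPM in the OD livers (0.90 ± 0.50), and Cyp2c29 and the epoxide hydrolase gene Ephx2 differed by -0.21 ± 0.29 and -0.041 ± 0.18. Cyp2b10 and Nqo1 had too few counts. In the NRF2 and glutathione list 1 of 32 tested genes (42 listed) was lower at that level, Ugdh, which makes UDP-glucuronate, at 26.8 to 37.1 CPM in DHA livers against 36.4 to 49.2 CPM in OD livers (-0.44 ± 0.18). Sod1, cytosolic superoxide dismutase, ranged over 1203 to 3671 CPM in DHA livers against 879 to 1372 CPM in OD livers. The eicosanoid list had 3 higher and 1 lower of 16 tested genes (33 listed). The higher ones were Cyp4a10, Cyp4a14 and Mgll, and the lower was Cyp4a12a, an arachidonate omega-hydroxylase of male liver, at 0, 9.18, 0, 37.9 and 28.9 CPM in the DHA livers, against 82.5, 14.6, 64.2 and 50.7 CPM in the OD livers (-1.76 ± 0.79, and -1.003 without DHA livers 1 and 3).

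No tested acute phase or interferon gene was under an unadjusted p of 0.05, while most had negative estimates. Of 32 tested acute phase genes (41 listed), 24 lay below 0, with a median of -0.12, and Saa1, serum amyloid A, ran over 292 to 5099.9 CPM in DHA livers against 824 to 5565 CPM in OD livers. Lcn2, an iron-binding acute phase protein, had 159.9 to 854 CPM in DHA livers against 164 to 553 CPM in OD livers (0.74 ± 0.68), and Cxcl1, a neutrophil chemokine, 6.69 to 30.8 CPM in DHA livers against 8.69 to 71.1 CPM in OD livers (-1.35 ± 0.65). Hamp, the iron hormone hepcidin, had 2.05, 0, 146, 339 and 0 CPM in the DHA livers, against 244, 306, 321 and 607 CPM in the OD livers (-1.91 ± 1.27, unadjusted p 0.151, edgeR). DHA livers 1, 2 and 5 were below the level of 3 counts, and the close copy Hamp2 could share its reads. Of 12 tested interferon genes (41 listed) 10 lay below 0, with a median of -0.13. Complement and coagulation had 2 of 40 tested genes (44 listed) lower at that level, where 3.02% of all genes were, the terminal complement components C6 (32.8 to 88.7 CPM in DHA livers against 117 to 179.9 CPM in OD livers, -1.26 ± 0.45) and C8b (63.5 to 189.7 CPM in DHA livers against 166 to 227 CPM in OD livers, -0.64 ± 0.27), both also on the male-biased list below. Without DHA livers 1 and 3 they differed by -0.89 and -0.30. Of 7 tested immediate early genes (25 listed), all 7 lay below 0 and 3 were lower at that level, Dusp1 and Dusp6, phosphatases of MAP kinases, and Gadd45g, a stress gene, at 8.25 to 27.5 CPM in DHA livers against 25.7 to 40.1 CPM in OD livers (-0.99 ± 0.31).

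Lists of respiration and translation had medians near 0 for nuclear respiratory genes, below 0 for mitochondrial transcripts and above 0 for ribosomal proteins. The 77 nuclear genes of oxidative phosphorylation had a median of -0.0073, with 2 lower at an unadjusted p under 0.05, Ndufa8 and Ndufa9 of complex I (-0.35 ± 0.16 and -0.38 ± 0.18). Of 12 tested mitochondrially encoded transcripts (13 listed), 11 lay below 0 and 3 were lower at that level, where 3.02% of all genes were, among them mt-Nd5, at 1848 to 3172 CPM in DHA livers against 3301 to 3919 CPM in OD livers (-0.49 ± 0.19), and mt-Co1 (-0.62 ± 0.28). Their median was -0.22. Cytosolic ribosomal protein genes had a median of 0.11 over 78 tested (79 listed), with 69 above 0 and 9 below. Only Rps28 and Rpl31 were higher at that level (0.42 ± 0.16 and 0.31 ± 0.13), 2 of 78 beside 2.85% of all genes. Among 11 tested clock genes (21 listed) Hlf, an output factor, was higher at that level (0.51 ± 0.22), and Noct, a rhythmic nuclease gene, was without overlap at 24.5 to 47.2 CPM in DHA livers against 49.2 to 70.7 CPM in OD livers (-0.74 ± 0.37). Pericentral genes had 1 higher of 17 tested (22 listed), the glutamate transporter gene Slc1a2 (0.52 ± 0.20). Periportal genes had 1 higher and 1 lower of 20, Aldh1b1 (0.64 ± 0.29) and Cyp2f2 (-0.52 ± 0.23).

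Sex-biased liver genes moved in part with the libraries described above. DHA liver 5, with 0 Xist and 62 Y-linked counts, also lay below every OD liver in the median of the male-biased list. Of 40 male-biased genes 31 were tested, with 1 higher (Mup2) and 8 lower at an unadjusted p under 0.05, where 2.85% and 3.02% of all genes were, 30 of 31 below 0 and a median log2 difference of -1.05. Elovl3, an elongase of very long fatty acids that is androgen-dependent in mouse liver, had 8.21, 24.5, 16.5, 33.4 and 4.13 CPM in the DHA livers, against 101, 18.2, 79.2 and 34.8 CPM in the OD livers (-1.79 ± 0.59). Of members named after their values were seen, Cyp2d9, a steroid hydroxylase of male liver, had 36.96, 189.7, 2.35, 415 and 167 CPM in the DHA livers, against 327, 295, 308 and 204 CPM in the OD livers, and Hsd3b5, a ketosteroid reductase, had 0, 52.01, 0, 33.4 and 53.7 CPM in the DHA livers, against 41.9, 52.8, 87.8 and 63.7 CPM in the OD livers. DHA livers 1 and 3 were at 0 for Hsd3b5 and Cyp4a12a, and the list's per-liver median, on the scale used above, was -1.45, 0.77, -1.16, 0.45 and -0.46 in DHA livers 1 to 5 and 0.65, 1.05, 1.68 and 0.38 in OD livers 1 to 4. Without DHA livers 1 and 3 the list had 1 higher and 1 lower gene at that level, with a median of -0.56. Those livers had the lowest medians of this list, so leaving them out was bound to shrink its difference. The smaller difference is therefore not a test of sex. Only 6 of 32 female-biased genes were tested, 2 of them higher at that level, Fmo2 and Cyp2b9. Cyp2b9, a steroid hydroxylase, had 36.7 to 199.9 CPM in DHA livers against 19.3 to 40.1 CPM in OD livers (1.47 ± 0.61), and Cyp17a1 differed by 1.07 ± 0.54. The other 26 had too few counts to be tested, and several were detected mainly in DHA livers 1 and 3. Cyp2a4, a steroid hydroxylase, had 167 and 34 counts in DHA livers 1 and 3, 0 in the other DHA livers and 0 to 1 in OD livers. Sult3a1, a sulfotransferase, had 169 and 42 counts in those livers, 0 to 3 in the other DHA livers and 0 to 4 in OD livers, and Cyp3a41a had 109 and 50 counts, and 0 in every other DHA and OD liver. These members were named after their values were seen. Sex was not a term of the model, since the labels give none. Without DHA livers 1 and 3, 1 gene passed the adjusted threshold, Mup2, and 305 were under an unadjusted p of 0.05. Of 66 genes named here that were under that level with all livers, 65 were tested in that fit, which has fewer livers, and 39 of these were under it again. None changed sign, and 9 had differences smaller by over 1.5 times, Cyp2b9 at 0.44, Cyp2f2 at -0.28, Rgs5 at 0.34 and Mup3 at -0.40, and Cd36, Slc25a20, Cyp2c67, Cyp4a12a and C8b as given with their lists. These genes were picked by p in a fit that shares most livers, so a kept sign is not an independent check. Among other named genes, Car3, Ephx2 and Saa1 changed sign in the fit without DHA livers 1 and 3. Cyp17a1, Hsd3b5 and Cyp2d9 differed by 0.44, -0.39 and -0.13 in that fit, and Fmo2 by 1.65, Pdia4 by -0.72 and Cyp4a14 by 1.85.

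Most markers of other liver cells were too low to test or overlapped between the diets. In bulk RNA, fewer cells of a type and less RNA per cell cannot be told apart. Of 22 Kupffer cell and macrophage markers 14 were tested and 0 were under an unadjusted p of 0.05 (median 0.24), with summed levels of 783 to 1260.4 CPM in DHA livers and 606 to 927 CPM in OD livers. Ctss, a lysosomal protease, had the smallest p among them (0.63 ± 0.33). Of 20 endothelial markers 11 were tested and 1, Stab2, a scavenger receptor of sinusoidal endothelium, was higher, with 41.1, 70.4, 39.98, 57.97 and 37.1 CPM in the DHA livers, against 34.7, 20.04, 17.1 and 28.97 CPM in the OD livers and no overlap (0.90 ± 0.28). The summed level of the endothelial markers, scaled by total counts, was 628 to 734 CPM in DHA livers against 473 to 626 CPM in OD livers. Every DHA liver was above, but 628 and 626 CPM nearly met. That scaling also put the median log2 difference of all genes at 0.15. Of 20 stellate cell and fibroblast markers 8 were tested and 1, Rgs5, was higher at that level (0.75 ± 0.30), where 2.85% of all genes were. Lymphocyte and plasma cell markers had 2 of 18 tested, both higher at that level, Igkc, the kappa light chain (472, 156, 219, 401 and 579.9 CPM in the DHA livers, against 54.97, 159, 32.1 and 346 CPM in the OD livers, 1.29 ± 0.52), and Jchain, which joins secreted antibodies (1.51 ± 0.53). The markers summed to 195 to 705 CPM in DHA livers and 58.2 to 402 CPM in OD livers, and the genes of antibody-secreting cells moved with Ighg2c. Their part in that result was not tested. Cholangiocyte and neutrophil markers had too few counts for any test, with Cftr and Cldn4, and Mpo, at 0 in all 9 livers. Red cell markers summed to 914 to 3761 CPM in DHA livers and 329 to 13087 CPM in OD livers, with 0 of 4 tested markers (8 listed) under that level. Of 8 adipocyte markers 2 were tested, and Fabp4, a fatty acid carrier of adipocytes and endothelium, was without overlap (0.76 ± 0.37), while Car3, a carbonic anhydrase, overlapped at 1088 to 2172 CPM in DHA livers against 1394 to 2373 CPM in OD livers (-0.17 ± 0.39). Lep was at 0. Of 14 pancreas and gut markers 2 were tested and 9 were at 0.

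**Figure D4:**
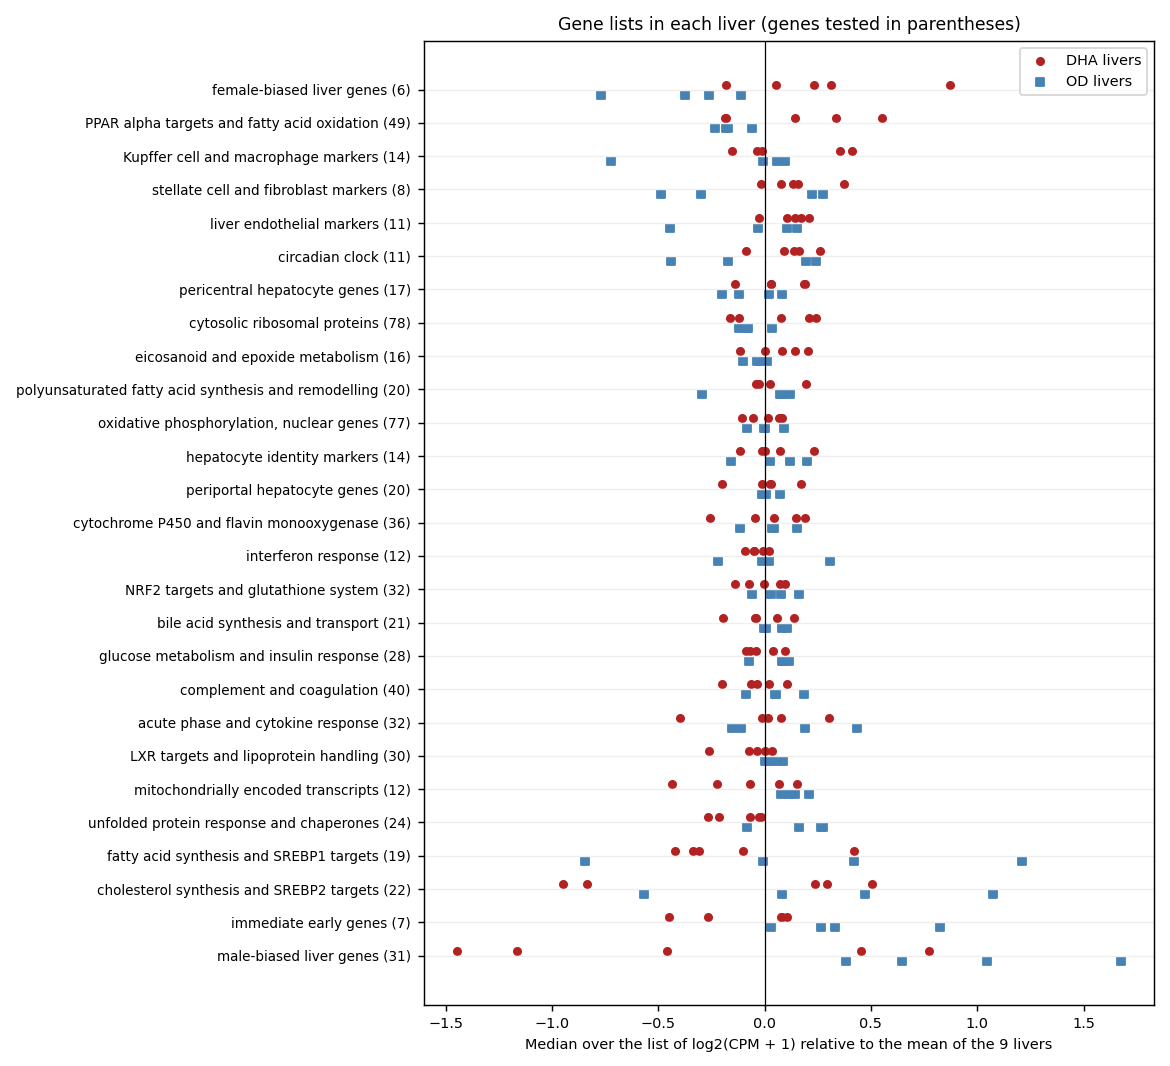
Median over each gene list of log2(CPM + 1) relative to the mean of the 9 livers (horizontal axis), 1 point per liver, DHA livers as red circles above OD livers as blue squares, for lists with at least 5 tested genes (number in parentheses). In the chaperone list all DHA livers lie below OD livers 1 to 3 and OD liver 4 lies among them, the male-biased list has DHA livers 1 and 3 lowest, and most lists overlap around 0.

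EPA livers were set against DHA livers at the same stated dose. No gene passed (0 of 4600, a background of 0%, edgeR, smallest adjusted p 0.99965), 165 were under an unadjusted p of 0.05, and DESeq2 also called 0. EPA minus OD also gave 0 genes, with 293 under an unadjusted p of 0.05, and it shares the OD livers with DHA minus OD. The values are therefore only placed side by side. This was the 1 pair of fatty acids at a matched dose. The 95% interval of a gene's DHA minus EPA difference reached a median over genes of 0.51 on the log2 scale (1.42-fold) to either side of its estimate, and for 3910 genes (85%) it lay within 1 log2 unit of 0. Intervals are not adjusted for the number of genes. For Mup2 the EPA livers had 1002, 263, 910.3, 251 and 309.7 CPM, a log2 difference from OD of 5.46 ± 0.99 beside 6.05 ± 1.01 for DHA, and DHA minus EPA was 0.59 (interval -0.83 to 2.01). For Fmo2 they had 70.7, 40.1, 60.2, 72.9 and 50.6 CPM, with 1.78 ± 0.35 beside 1.75 ± 0.35, and DHA minus EPA was -0.031 (interval -0.63 to 0.57). Cyp4a14 had 297, 28.97, 46.3, 38.7 and 324 CPM in EPA livers, and DHA minus EPA was 0.22 (interval -1.10 to 1.54). The highest EPA values were those of EPA livers 1 and 5, which carried Xist, while DHA liver 4, with 0 Xist counts, was also high. Whether sex had a part in Cyp4a14 was not tested. Hsp90b1 had 903, 834, 593, 986 and 654 CPM in EPA livers, and DHA minus EPA was -0.29 (interval -0.61 to 0.029). Cpt2 had 44.4, 20.1, 60.2, 72.9 and 52.6 CPM, and DHA minus EPA was 0.52 (interval -0.00040 to 1.03). Cyp8b1, which had 61.6, 45.9, 70.5, 84.7 and 132 CPM in DHA livers and 32.3, 44.6, 57.9, 36.4 and 34.4 CPM in EPA livers, had a DHA minus EPA difference of 0.96 (interval 0.24 to 1.69) without passing (adjusted p 0.99965, edgeR). The median of the oxidation list was 0.35 for DHA and 0.20 for EPA against OD, and that of the chaperone list -0.29 and -0.17. These intervals do not show that the diets act alike.

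The DHA effect in liver was then tested against the DHA effect in aorta, over 3706 genes with enough counts in both. With 5 mice per diet the livers and aortas must share mice, but the labels tie no liver to an aorta, so the fit treats all libraries as independent. Xist was above 100 counts in aortas DHA 1, EPA 1 and EPA 5, at 154, 147 and 239 counts. Y-linked genes were at 2.66 and 15.9 CPM in DHA aortas 1 and 3, against 128, 209 and 157 CPM in DHA aortas 2, 4 and 5. In OD aortas they were at 133 to 198 CPM. Aorta totals ran from 328295 to 608224 counts in DHA mice and from 179795 to 717508 in OD mice, so the aorta libraries were more uneven in depth. The difference passed for 7 genes (0.189%, edgeR), 2 with a higher and 5 with a lower DHA minus OD value in liver than in aorta, and 484 genes were under an unadjusted p of 0.05, 317 of them lower in liver (8.55%). Scaled by total counts alone, the median over all genes of the liver minus aorta value moved to 0.39, and 63 genes passed, 62 higher and 1 lower. Fmo2 had log2 differences of 1.75 ± 0.30 in liver and -0.17 ± 0.18 in aorta, a difference of 1.93 ± 0.35 (adjusted p 0.0122). Timp3 had 1.17 in liver and -0.16 in aorta, a difference of 1.33 ± 0.27 (adjusted p 0.0177). Elovl3 differed by -3.35 ± 0.71 (adjusted p 0.0235), from -1.80 in liver and 1.55 in aorta. Ndufa8, of respiratory complex I, Cycs, cytochrome c, and Chchd10, a mitochondrial intermembrane protein, differed by -1.17, -1.37 and -1.10 (adjusted p 0.0122, 0.0181 and 0.0217). Their liver values were -0.36, -0.40 and -0.19, and their aorta values 0.82, 0.97 and 0.91. The remaining gene was a predicted one.

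The respiratory chain as a list had a median DHA minus OD of -0.012 in liver and 0.61 in aorta over 77 genes, 62 of which were lower in liver than in aorta at an unadjusted p under 0.05, where 8.55% of all genes were. Its median liver minus aorta value was -0.63, and -0.28 scaled by total counts, where 6 members were lower at that level and the median relative to all genes was -0.66. For fatty acid synthesis the medians were -0.47 in liver and 0.85 in aorta over 18 genes, 11 of them lower in liver at that level, with a median liver minus aorta value of -1.30, and -0.996 scaled by total counts. Markers of several cell types and the mitochondrial share of counts in the aortas moved with these lists. The 8 adipocyte markers summed to 7433, 8160.3, 8419, 10437 and 8659.6 CPM in DHA aortas, against 4906, 7813, 8053 and 5458 CPM in OD aortas, with 0 of them at 0 in all 9 aortas and the ranges overlapping. Ucp1, the uncoupling protein of brown adipocytes, had 1456, 2233, 1637, 1920.4 and 1632 CPM in DHA aortas, against 729, 1306, 901 and 441 CPM in OD aortas, without overlap. Plin1, which coats lipid droplets of adipocytes, did not overlap either, at 125 to 178 CPM in DHA aortas against 81.5 to 122 CPM in OD aortas. The remaining markers overlapped, among them Car3 at 1069 to 2581 CPM in DHA aortas against 1190.2 to 2826 CPM in OD aortas and Cfd, the adipsin gene, at 82.2 to 142 CPM in DHA aortas against 55.6 to 325 CPM in OD aortas. Macrophage markers summed to 415 to 511 CPM in DHA aortas against 517 to 761 CPM in OD aortas. Endothelial markers summed to 675 to 860.1 CPM in DHA aortas against 873 to 1104 CPM in OD aortas, and both were lower in DHA aortas without overlap. Aorta marker levels are scaled by total counts, under which the liver minus aorta median of all genes moved to 0.39. How much of the marker differences comes with that shift was not tested. Stellate cell and fibroblast markers summed to 9473 to 13479 CPM in DHA aortas against 13317 to 19993 CPM in OD aortas. Mitochondrially encoded counts made up 22.1% to 30.8% of the total in DHA aortas and 10.97% to 26.9% in OD aortas. Their part in the difference between liver and aorta was not tested. Fmo2 and Ndufa8 passed in every fit that left out 1 library. With libraries thinned to 1 depth none of the 6 passed (adjusted p 0.0825 to 0.217, edgeR). Scaled by total counts Ndufa8, Cycs and Chchd10 missed the threshold (0.0813, 0.0547 and 0.0822), and without DHA livers 1 and 3 Timp3 and Elovl3 did (0.0815 and 0.109). The fit without DHA livers 1 and 3 kept all aortas, DHA aortas 1 and 3 included. Timp3 missed the threshold without OD liver 4 (adjusted p 0.0584, edgeR). Cycs missed it without OD liver 1, OD liver 4, OD aorta 3 or OD aorta 4 (0.0501 to 0.0829). Chchd10 missed it without DHA liver 4, OD liver 4, DHA aorta 2, OD aorta 3 or OD aorta 4 (0.0527 to 0.105). Elovl3 missed it without DHA liver 5, OD liver 1, DHA aorta 2, OD aorta 3 or OD aorta 4 (0.0639 to 0.141). The number of calls depended on single libraries, and was 29 without OD aorta 2 and 23 without OD aorta 1, as against 4 without OD aorta 3, 4 without OD aorta 4, 4 without OD liver 4, 21 without OD liver 3 and 13 without DHA liver 1.

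**Figure D5:**
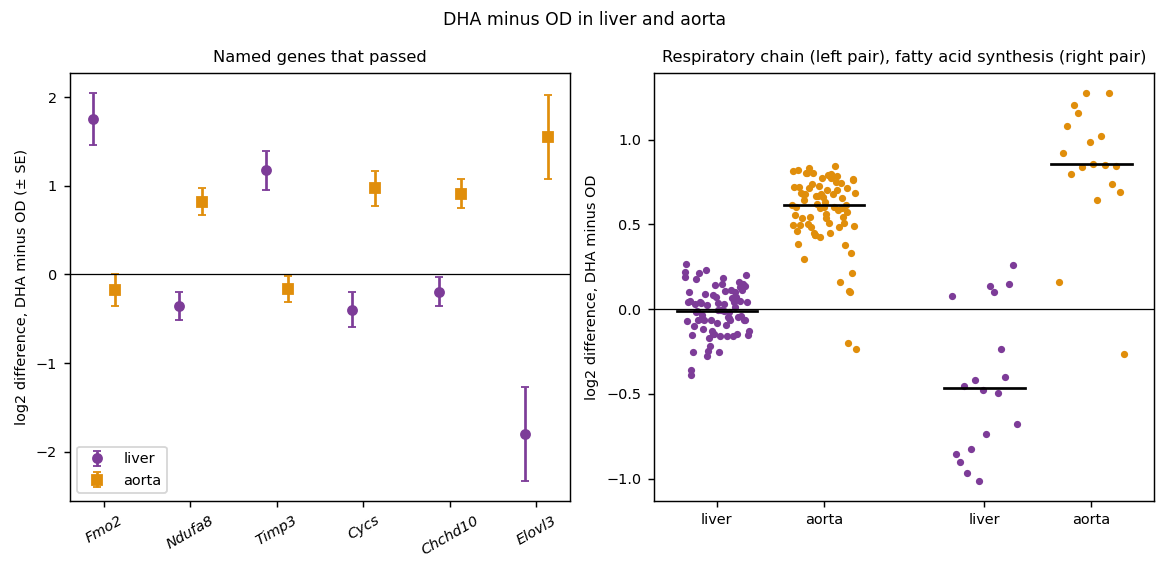
Left, log2 difference, DHA minus OD (vertical axis, ± SE), of the 6 named genes whose liver and aorta values differed, liver as purple circles and aorta as orange squares. Right, the same difference for each gene of the respiratory chain and of fatty acid synthesis, with the median as a black bar, showing respiratory chain medians of -0.012 in liver and 0.61 in aorta.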

How the data were processed

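RNA of 5 DHA, 5 EPA and 4 OD livers was sequenced as 3′ end libraries with unique molecular identifiers (QIAseq UPX 3′), per the labels' protocols. The authors deposited 1 table of whole-number counts per gene, built on GRCm38.p6 per the submitters' processing notes, which also name edgeR. The sources used here do not give the aligner, the counter or the collapsing of identifiers, so whether 1 count is 1 molecule is unknown. Strand handling is not given either, and antisense or overlapping genes cannot be told apart.

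Genes passing edgeR's filterByExpr (minimum count 10) in the 9 DHA and OD livers were fitted with edgeR 4.0.16 in R 4.3.3, using TMM scaling and quasi-likelihood tests over all 14 livers, which share 1 estimate of spread (11 residual degrees of freedom). P-values were adjusted by Benjamini-Hochberg over 4600 genes, with a threshold of 0.05. CPM values are counts per 1e6 after TMM scaling, with some exceptions. The CPM of Alb, Xist, Y-linked genes and the floor, all summed marker levels, and the adipocyte genes in aortas use total counts. Log2 differences are given ± SE and other values ± SD. The liver and aorta effects were compared by an interaction in 1 fit of both tissues. Library values had exact permutation tests. DESeq2 1.42.0 and limma 3.58.1 were alternatives. The lowest pairwise chi-square per degree of freedom between libraries of 1 diet was 5.92, so none was a duplicate. Positions are from GENCODE M21 and promoter windows from RefSeq.

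Named genes were, since fewer passed the threshold, the 8 with the smallest p in each direction, up to 3 of each list by smallest p, and a panel of 36. Predicted genes were counted, not named. A few of the named and listed genes are not reported here one by one, though list counts and medians include them. The comparison, its lists and its alternatives were chosen with earlier results of these data known, and the alternative without DHA livers 1 and 3 was added after the data were seen.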

Additional observations from a re-analysis of the deposited data

Results flagged for a closer look

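Within a diet, 15 of 246 groups of values had 1 liver far from the others, where chance gives about 1 in 20. DHA liver 1 stood apart in Xist, at 526 CPM, and in Elovl6, at 90.3 CPM. DHA liver 3 stood apart in Mup2 at 3005 CPM and Timp3 at 79.96 CPM, both the highest of the diet, and in Ugt2b35 at 16.5 CPM and Xbp1 at 91.7 CPM, both the lowest. DHA liver 2 was highest for Vcp at 223 CPM, and DHA liver 5 for Thrsp at 673 CPM. Among OD livers, OD liver 4 stood apart in the share of counts in tested genes, at 94.9%, in Pcx at 243 CPM and in Slc1a2 at 82.6 CPM. OD liver 3 was highest for Noct at 70.7 CPM and Dnajc3 at 495 CPM. OD liver 2 was highest for Creld2 at 98.4 CPM, and OD liver 1 was highest for Saa1 at 5565 CPM.

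The DHA minus OD difference was not the same in liver and aorta for 6 named genes (edgeR interaction, adjusted p 0.0122 to 0.0235). Liver minus aorta was 1.93 for Fmo2 and 1.33 for Timp3 on the log2 scale. It was -1.17 for Ndufa8, -1.37 for Cycs, -1.10 for Chchd10 and -3.35 for Elovl3. The part of adipocyte content and mitochondrial share in the aortas, given above, was not tested.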

How the results depend on the processing

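Between DHA and OD livers, 0 genes passed in the main comparison, and also with DESeq2 size factors in edgeR, scaling by total counts, a filter over the 3 diets, the 9 livers alone, robust estimation, limma voom, thinning of every liver to 343824 counts, and without the Xist-high livers. DESeq2's Wald test called 2 genes, edgeR without the filter beyond 1 count called 108, of which 71 were among the 4600 genes (the cause was not tested), and leaving out 1 liver at a time gave 0 to 1. Leaving out DHA livers 1 and 3, an alternative chosen after seeing the data, gave 1. DHA against EPA gave 0 genes under all 14 alternatives. The liver against aorta comparison, with 7 genes, gave 85 with DESeq2, 63 scaled by total counts, 0 with libraries thinned to 179795 counts, 12 without Xist-high libraries, 5 without DHA livers 1 and 3, and 4 to 29 when 1 library was left out. The cause was not tested. The Alb difference was 9618 to 14084 CPM with 1 liver left out and lost its p under 0.05 in 7 of 9 cases, where fewer splits exist; the total count and the tested share kept theirs in all 9. Of 117 named genes, 34 of 2327 values changed sign, none with an adjusted p under 0.05 (edgeR). Scaling by total counts moved the median of all genes to 0.15; relative to it the oxidation list lay at 0.35 and the chaperone list at -0.28. The sign changes on the log2 scale were, scaled by total counts, Abca1 0.030, Canx 0.12, Elovl5 0.021, Ephx2 0.10, Pck1 0.099 and Plin2 0.014; with counts thinned to the lowest total, Abca1 0.050 and Angptl4 -0.063; without the filter, Cyp8b1 -0.0082; without the Xist-high livers, Ephx2 0.068; without DHA livers 1 and 3, Car3 0.035, Ephx2 0.059 and Saa1 0.13. With 1 liver left out, the ranges of genes that changed sign were -1.26 to 0.018 for Acly, -0.10 to 0.010 for Canx, -0.79 to 0.078 for Creld2, -0.36 to 0.032 for Cyp2c29, -0.14 to 0.88 for Cyp7a1, -0.23 to 0.39 for Cyp8b1, -0.37 to 0.17 for Elovl5, -0.18 to 0.075 for Ephx2, -0.90 to 0.17 for Me1, -0.24 to 0.067 for Pck1, -0.31 to 0.28 for Plin2, -1.09 to 0.95 for Saa1 and -0.020 to 0.19 for Srebf1. Gene list medians moved by less than 1 SD of the list's medians among DHA livers in 353 of 384 cases. Lists with a wide spread can hardly fail that rule. Without DHA livers 1 and 3 the oxidation list counted as kept at 0.16, beside 0.35 with all livers. The male-biased list counted as kept at -0.56, beside -1.05. No paired analysis was run, since replicate numbers follow accession order and the labels tie neither livers of different diets nor a liver to an aorta. Xist was high in DHA 1, EPA 1 and EPA 5 of both tissues, but this was not used to pair libraries. A mouse shared by a liver and an aorta was therefore not modelled. Depth limits genes near 3 counts, or 3.90 to 8.73 CPM per liver, and these floors cover counting error only. The 5 DHA livers against 4 OD livers limit precision further.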
